A study of Mus musculus with 16 samples.

Results

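The 10 genes described here encode receptors and ligands that amplify WNT signals, inhibitors of the pathway, and LEF1, a transcription factor that acts within it. The inhibitors and *Lef1* are called feedback genes here. They were chosen by gene name as *Lgr4*, *Lgr5*, *Lgr6*, *Rspo1*, *Rspo3*, *Axin2*, *Lef1*, *Nkd1*, *Nkd2* and *Znrf3*, and all 10 are among the 55487 genes of the count table. They were measured by RNA-seq in urogenital sinus (UGS) epithelium of male C57BL/6J mouse fetuses on E16.75 (E, embryonic day), in 4 pools from dams given corn oil (vehicle, 5 ml/kg) and 4 pools from dams given TCDD (the dioxin 2,3,7,8-tetrachlorodibenzo-*p*-dioxin, 5 µg/kg), both by mouth on E13.5. TCDD is an agonist of the aryl hydrocarbon receptor (AHR). The general description of the series gives the TCDD dose as 1 µg/kg, and the text of the study also names another day of exposure. The dose and day of the sample labels are given here. UGS epithelium is the fetal tissue from which prostatic buds grow, and here it was freed of mesenchyme with enzymes and by hand, each pool holding 5 or 6 epithelia. The replicate is therefore a pool, and since litters are not given for the pools, p-values measure the spread between these pools.

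WNT ligands bind Frizzled receptors and LRP5 or LRP6, which spares β-catenin from breakdown so that it can act with TCF and LEF transcription factors on target genes. R-spondins are secreted proteins that bind LGR4, LGR5 or LGR6, and the complex removes the ubiquitin ligases ZNRF3 and RNF43, which otherwise clear Frizzled receptors from the cell surface. *Axin2*, *Nkd1*, *Znrf3* and *Lgr5* are widely used as targets of WNT and β-catenin, and all of them but *Lgr5* encode inhibitors of the pathway. WNT signals take part in the outgrowth of prostatic buds from the UGS.

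TCDD replicate 1 stood apart from the other TCDD pools and was removed by the study as an outlier, so the main tests were run over the other 7 pools and then over all 8. Levels are given as CPM, counts relative to the scaled total of the pool. The pools held 22254896 to 28146766 counts over genes and both sequencing lanes. Both known AHR targets *Cyp1a1* and *Cyp1b1* were high in every TCDD pool, TCDD replicate 1 included: *Cyp1a1* was at 130 to 241 CPM there and at 0 to 0.0720 CPM with vehicle. Epithelial markers were abundant in all pools, with a summed level of 8844 to 9229 CPM with vehicle and 10137 to 11438 CPM with TCDD for 10 genes. Of these 10, 5 were called higher with TCDD and 0 lower, over 7 pools and over 8. Of 11 mesenchymal markers, 8 could be tested over 7 pools and 6 of these were lower with TCDD, as were 2 of 8 over 8 pools (*Vim* and *Col3a1*). Their summed level was 137 to 195 CPM with vehicle, 78.0 to 83.1 CPM in TCDD replicates 2 to 4 and 155 CPM in TCDD replicate 1, with *Dcn* alone at 91.6 CPM there. Of the defining mesenchymal markers, *Twist1*, *Twist2* and *Zeb1* were too low to test. Endothelial and red blood cell markers were also too low to test, although the summed endothelial markers were at 5.18 CPM in TCDD replicate 1, against 0.873 to 1.57 CPM with vehicle and 0.341 to 1.20 CPM in TCDD replicates 2 to 4. Of the leukocyte markers, 3 of 6 were higher with TCDD over 7 pools and 1 of 5 over 8 (19.0 to 29.2 CPM in sum in TCDD replicates 2 to 4, 14.6 CPM in TCDD replicate 1, 10.3 to 20.6 CPM with vehicle). In pooled tissue, fewer cells of a type and less RNA per cell cannot be told apart.

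The promoters of the genes that changed are shown first, so that the values below can be read beside the DNA in front of each gene. RefSeq promoter windows (GRCm38.p6, 250 bases before to 50 bases after a start site) were at hand for 7 of the 10 genes, *Lgr5*, *Rspo3* and *Znrf3* not among them. Each was searched on both strands for the TCF/LEF words CTTTGAA and CTTTGAT and CTTTGTA and CTTTGTT, and for the AHR core word GCGTG, none of which overlap each other here. Capitals mark a match, which is printed as its reverse complement where it lies on the other strand. The windows of *Axin2* and *Lef1*, which were lower with TCDD, and of *Nkd2*, which was higher over 7 pools, read as follows.
Axin2, chr11:108920099-108920398, plus strand: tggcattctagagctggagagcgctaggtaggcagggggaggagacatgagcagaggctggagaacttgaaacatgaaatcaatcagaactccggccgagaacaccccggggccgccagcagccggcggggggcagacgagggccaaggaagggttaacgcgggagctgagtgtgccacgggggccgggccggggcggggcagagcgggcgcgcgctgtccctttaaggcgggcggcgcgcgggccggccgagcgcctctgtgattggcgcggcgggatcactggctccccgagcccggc
Lef1, upstream start, chr3:131110047-131110346, plus strand: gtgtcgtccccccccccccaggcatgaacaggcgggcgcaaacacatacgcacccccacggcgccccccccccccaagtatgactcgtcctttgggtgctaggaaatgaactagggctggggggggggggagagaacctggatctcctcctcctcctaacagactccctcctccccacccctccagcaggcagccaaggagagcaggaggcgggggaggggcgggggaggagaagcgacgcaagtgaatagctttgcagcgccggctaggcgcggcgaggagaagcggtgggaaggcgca
Lef1, internal start, chr3:131156044-131156343, plus strand: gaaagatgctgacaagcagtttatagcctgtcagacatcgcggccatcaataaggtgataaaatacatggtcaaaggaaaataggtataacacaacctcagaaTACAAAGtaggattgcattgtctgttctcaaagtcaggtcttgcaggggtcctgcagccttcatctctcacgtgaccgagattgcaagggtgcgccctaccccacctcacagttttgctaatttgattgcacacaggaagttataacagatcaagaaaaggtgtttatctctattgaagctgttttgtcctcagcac
Nkd2, chr13:73847582-73847881, minus strand: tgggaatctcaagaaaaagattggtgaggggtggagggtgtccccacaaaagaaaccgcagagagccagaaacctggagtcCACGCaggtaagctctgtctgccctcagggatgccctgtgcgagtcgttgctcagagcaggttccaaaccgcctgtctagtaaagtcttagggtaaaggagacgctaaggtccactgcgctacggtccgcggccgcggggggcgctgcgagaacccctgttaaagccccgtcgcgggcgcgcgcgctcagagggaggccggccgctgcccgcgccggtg

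*Lef1* has 4 windows, of which the first and the last are printed. The *Axin2* window and 3 of the 4 *Lef1* windows hold none of these words. The window at the internal *Lef1* start holds 1 TCF/LEF word, the reverse complement of CTTTGTA, 147 bases before the start. The *Nkd2* window holds 1 AHR core word, the reverse complement of GCGTG, 169 bases before the start. Among the other genes, *Lgr4* has 2 AHR core words and *Lgr6* and *Nkd1* have 1 each, and *Rspo1* has none. Such words are common, since 16.9% of all 32851 promoter windows hold a TCF/LEF word and 32.4% hold the AHR core word. A match in a window is a description of its letters and not a binding site.

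*Lgr4* was by far the most abundant of the LGR receptors in UGS epithelium, and *Lgr5* was the only LGR receptor called different with TCDD. Both encode seven-pass membrane receptors for R-spondins, and LGR5 is best known as a marker of stem cells in the intestine and hair follicle. *Lgr5* (ENSMUSG00000020140, chr10:115450311-115587780, minus strand, GRCm38) was at 51.3, 50.2, 43.9 and 50.8 CPM in vehicle replicates 1 to 4. It was at 35.2, 33.2, 35.6 and 33.7 CPM in TCDD replicates 1 to 4. Every TCDD pool, TCDD replicate 1 included, lay below every vehicle pool, and the TCDD pools lay close together. The mean fell from 49.1 ± 3.46 CPM (SD, n = 4 pools) to 34.2 ± 1.26 CPM (SD, n = 3), which gave a log2 fold change of −0.53 (SE 0.0823), by edgeR's quasi-likelihood F-test with a Benjamini-Hochberg adjusted p = 3.73e-04. Over all 8 pools the log2 fold change of *Lgr5* was −0.51 (edgeR adjusted p = 0.00114). The fall was less than 1.5-fold and did not pass edgeR's TREAT test against that threshold (adjusted p = 1.00).

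*Lgr4* (ENSMUSG00000050199, chr2:109917647-110014257, plus strand) did not pass the test. It was at 165, 181, 153 and 161 CPM in vehicle replicates 1 to 4 and at 184, 171, 160 and 193 CPM in TCDD replicates 1 to 4, so that the groups overlapped. Its log2 fold change was 0.08 with a 95% confidence interval of −0.10 to 0.26 (edgeR adjusted p = 0.554), and 0.10 over 8 pools (adjusted p = 0.452). *Lgr6* (ENSMUSG00000042793, chr1:134983301-135105276, minus strand), the LGR receptor known from skin appendages, was low and varied between pools. It was at 3.42, 5.97, 3.59 and 10.6 CPM with vehicle and at 2.57, 7.44, 6.28 and 3.98 CPM with TCDD. The 95% confidence interval of its log2 fold change, −0.98 to 0.97 around 0.00 (edgeR adjusted p = 0.996), reaches nearly as far down as up. Over 8 pools the log2 fold change of *Lgr6* was −0.22 (adjusted p = 0.793).

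**Figure D1:**
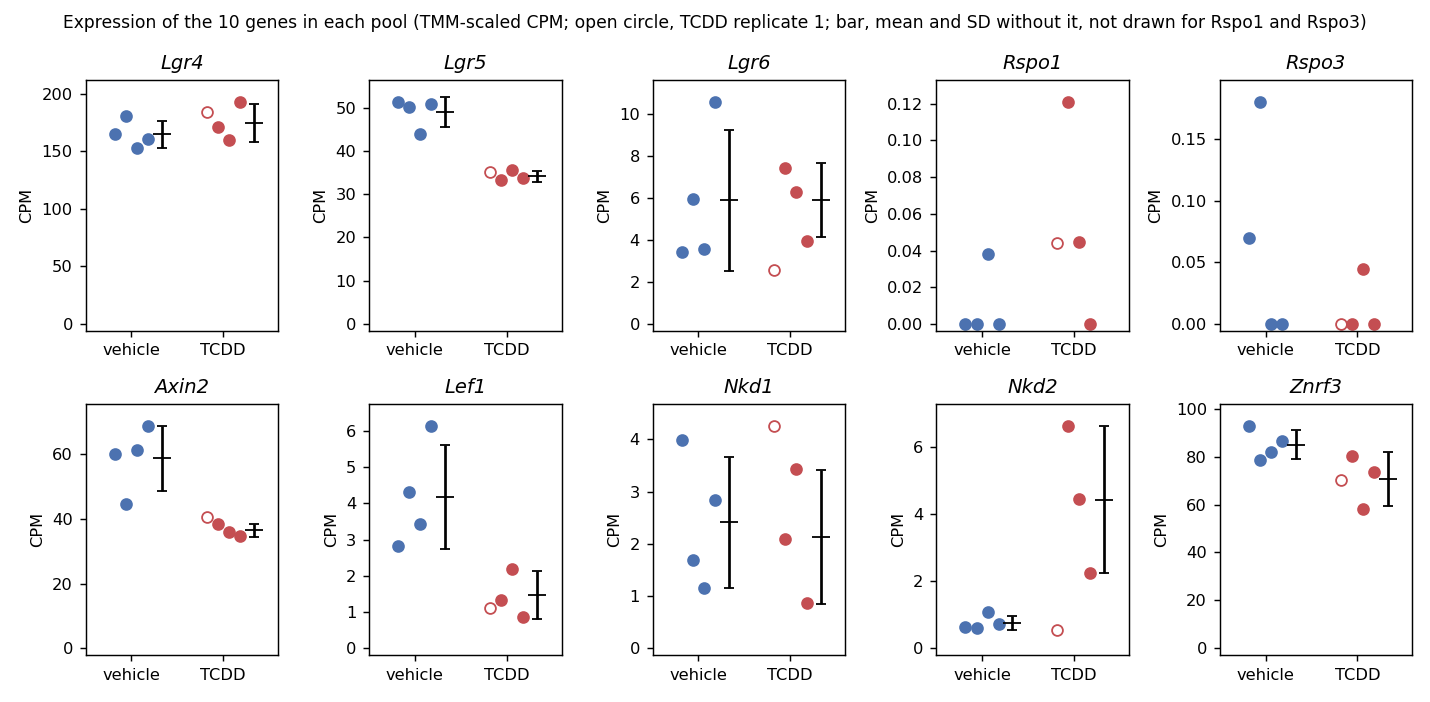
TMM-scaled CPM (y axis, linear) of each of the 10 genes in the 4 vehicle pools (blue) and the 4 TCDD pools (red; open circle, TCDD replicate 1), with the mean and SD beside them, TCDD replicate 1 left out. The TCDD pools of *Lgr5* (33.2 to 35.6 CPM) sit below all vehicle pools (43.9 to 51.3 CPM), and the open circle of *Nkd2* (0.531 CPM) sits with the vehicle pools while the other TCDD pools reach 2.24 to 6.63 CPM.

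Relative to one another, the receptors shifted towards *Lgr4*. Levels of different genes were set side by side per kb of exon (CPM per kb, from the exons in GENCODE M21 on GRCm38). On this scale *Lgr4* was at 28.0 ± 2.00, *Lgr5* at 4.78 ± 0.337 and *Lgr6* at 0.860 ± 0.488 CPM per kb with vehicle (SD, n = 4 pools). *Lgr4* took 80.8% to 84.4% of the summed LGR level per length in the vehicle pools and 86.1% to 89.5% in the 4 TCDD pools. *Lgr5* took 13.4% to 14.9% with vehicle and 8.95% to 11% with TCDD, and the groups did not overlap for either share. The shares are a description of the *Lgr5* values above and were not tested.

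R-spondin transcripts were nearly absent from the isolated epithelium. *Rspo1* (ENSMUSG00000028871, chr4:124986430-125009099, plus strand), whose product is known for its part in ovary development, had 0, 0, 1 and 0 counts in vehicle replicates 1 to 4 and 1, 3, 1 and 0 counts in TCDD replicates 1 to 4. *Rspo3* (ENSMUSG00000019880, chr10:29452416-29535867, minus strand), an R-spondin of stromal and endothelial cells in other organs, had 2, 5, 0 and 0 counts with vehicle and 0, 0, 1 and 0 counts with TCDD. Over all 8 pools this came to 6 counts of *Rspo1* and 8 counts of *Rspo3*. A count of 0 allows up to 3 counts, which is 0.105 to 0.134 CPM at the depth of these pools, and this limit covers counting error only. Neither gene passed the filter on low counts, and no fold change is given because most pools were at or under that limit. The R-spondins outside the chosen genes were as low, with a mean of 0.00873 CPM of *Rspo2* and 0 CPM of *Rspo4* with vehicle. The vehicle pool with 5 counts of *Rspo3*, replicate 2, had a mesenchymal marker sum of 176 CPM, within the range of the vehicle pools. Its summed red blood cell markers were at 18.3 CPM, against 0.489 to 1.12 CPM in the other vehicle pools. Its smooth muscle marker sum, 6.01 CPM, was the highest of the vehicle pools. TCDD replicate 1, with 0 counts of *Rspo3*, had a smooth muscle marker sum of 6.02 CPM. The source of the *Rspo3* counts was not tested.

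Among the feedback genes, *Axin2* and *Lef1* were lower with TCDD in all pools. *Axin2* encodes a scaffold of the complex that destroys β-catenin and is a general reporter of WNT activity. *Axin2* (ENSMUSG00000000142, chr11:108920349-108950783, plus strand) was at 60.1, 44.8, 61.5 and 68.7 CPM in vehicle replicates 1 to 4. It was at 40.6, 38.6, 36.0 and 34.8 CPM in TCDD replicates 1 to 4. The TCDD pools all lay below the lowest vehicle pool, vehicle replicate 2, which stood closer to them than to the other vehicle pools. The mean fell from 58.8 CPM (n = 4 pools, 44.8 to 68.7 CPM) to 36.5 ± 1.97 CPM (SD, n = 3), which gave a log2 fold change of −0.69 (SE 0.122, edgeR adjusted p = 0.00122). Over 8 pools the log2 fold change of *Axin2* was −0.65 (edgeR adjusted p = 0.00409). The estimated fall was 1.61-fold over 7 pools, but it did not pass TREAT against a 1.5-fold change (adjusted p = 0.815), nor did it over 8 pools.

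*Lef1* encodes a transcription factor that binds β-catenin and is used in the budding of many epithelial appendages. *Lef1* (ENSMUSG00000027985, chr3:131110471-131224356, plus strand) was at 2.83, 4.32, 3.44 and 6.13 CPM in vehicle replicates 1 to 4, and at 1.11, 1.33, 2.18 and 0.871 CPM in TCDD replicates 1 to 4. The groups did not overlap, although the highest TCDD pool, replicate 3, came close to the lowest vehicle pool, replicate 1. These levels rest on 81 to 169 counts with vehicle and 23 to 49 counts with TCDD. The mean fell from 4.18 ± 1.44 CPM (SD, n = 4 pools) to 1.46 ± 0.666 CPM (SD, n = 3), which gave a log2 fold change of −1.54 (SE 0.336, edgeR adjusted p = 0.00491). Over 8 pools the log2 fold change was −1.61 (edgeR adjusted p = 0.00618). By TREAT against a 1.5-fold change, *Lef1* narrowly missed the threshold over 7 pools (adjusted p = 0.0551), and it passed without vehicle replicate 1 or without TCDD replicate 3 (TREAT adjusted p = 0.0194 and 0.0277).

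*Nkd2* was the only one of the 10 genes that was higher, and it was higher in 3 of the 4 TCDD pools. NKD1 and NKD2 are relatives of the fly protein Naked cuticle and bind Dishevelled, the adaptor downstream of Frizzled. *Nkd2* (ENSMUSG00000021567, chr13:73818534-73847631, minus strand) was at 0.629, 0.612, 1.07 and 0.725 CPM in vehicle replicates 1 to 4. It was at 6.63, 4.45 and 2.24 CPM in TCDD replicates 2 to 4 and at 0.531 CPM in TCDD replicate 1, below every vehicle pool. Over 7 pools the mean rose from 0.759 ± 0.214 CPM (SD, n = 4) to 4.44 ± 2.20 CPM (SD, n = 3), which gave a log2 fold change of 2.53 (SE 0.365, edgeR adjusted p = 2.68e-04), and the rise passed TREAT against a 1.5-fold change (adjusted p = 0.00209). Over all 8 pools the log2 fold change was 2.19 (SE 0.636) and the call was lost in edgeR (adjusted p = 0.0517), while DESeq2, added after this was seen, kept it over 8 pools (adjusted p = 0.00240). The pools differed by more than counting error. TCDD replicate 2 had 165 counts (95% Poisson interval 141 to 192) and TCDD replicate 4 had 59 counts (44.9 to 76.1), against 12 counts in TCDD replicate 1 (6.20 to 21.0).

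*Nkd1* and *Znrf3* did not pass the test. *Nkd1* (ENSMUSG00000031661, chr8:88521354-88594884, plus strand) was at 3.98, 1.69, 1.15 and 2.83 CPM with vehicle and at 4.25, 2.09, 3.43 and 0.871 CPM in TCDD replicates 1 to 4, so the groups overlapped fully. Its log2 fold change was −0.21 over 7 pools with a 95% confidence interval of −1.34 to 0.91 (edgeR adjusted p = 0.809), and 0.12 over 8 pools (adjusted p = 0.908). *Znrf3* (ENSMUSG00000041961, chr11:5276324-5444847, minus strand), the ubiquitin ligase that R-spondins and LGR receptors restrain, was at 92.7, 78.6, 82.1 and 86.7 CPM with vehicle and at 70.2, 80.4, 58.3 and 73.4 CPM with TCDD. Only TCDD replicate 2 reached into the vehicle range. The log2 fold change of *Znrf3* was −0.27 (SE 0.101, edgeR adjusted p = 0.0737), and −0.27 over 8 pools as well (adjusted p = 0.0863). It depended on single TCDD pools, being −0.37 without TCDD replicate 2, where it passed as lower (adjusted p = 0.0210), and −0.15 without TCDD replicate 3 (adjusted p = 0.235).

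**Figure D2:**
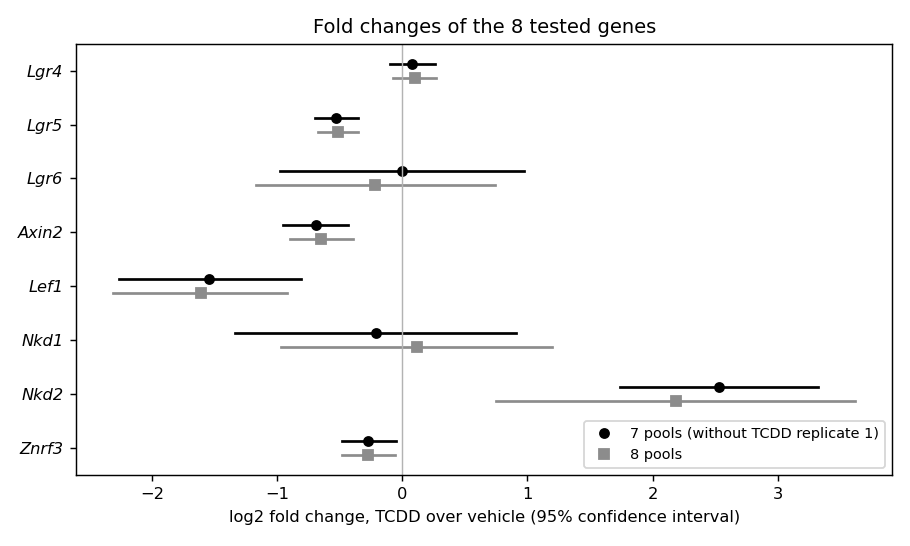
Log2 fold change of TCDD over vehicle (x axis) with its 95% confidence interval for the 8 genes that could be tested, over 7 pools (black circles) and over all 8 pools (gray squares). *Lgr5*, *Axin2* and *Lef1* lie left of 0 with both sets of pools (−0.53, −0.69 and −1.54 over 7 pools), while the interval of *Nkd2* widens from 1.74 to 3.32 over 7 pools to 0.75 to 3.62 over 8 pools.

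Counted together, 3 of the 8 tested genes fell and 1 rose over 7 pools, and 4 did not pass the test. Of all 14233 genes tested over 7 pools, 11.2% were called lower and 11.9% higher, against 37.5% and 12.5% of the 8 genes. The median log2 fold change of the 8 genes was −0.24, and that of all tested genes was 0.00. Over 8 pools 3 of the 8 genes were called lower, against 6.00% of all 14051 genes tested there. None was called higher by edgeR (background 7.41%), where 1 gene, *Nkd2*, was higher at an unadjusted p under 0.05 and 1 was called by DESeq2. TREAT called 1 of the 8 genes higher over 7 pools, against 2.59% of all genes, and 0 over 8 pools, against 0.925%. Vehicle and TCDD pools did not overlap for the 3 genes that fell in either set of pools, as they did not in 15.4% of all genes over 7 pools and 8.28% over 8 pools. They did not overlap for the 1 gene that rose over 7 pools (16.1% of all genes) and for 0 genes higher over 8 pools (10.1%). With so few genes these shares describe the chosen genes and test nothing about them.

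The 4 called genes can be set beside the marker genes pool by pool. In TCDD replicate 1, whose mesenchymal marker sum of 155 CPM lay within the vehicle range, *Lgr5* was at 71.7%, *Axin2* at 69.0% and *Lef1* at 26.5% of the vehicle mean. Of the 8 tested mesenchymal markers, *Dcn* (91.6 against 89.8 CPM) and *Lum* (17.8 against 12.0 CPM) were above their vehicle means in that pool. The others were below, such as *Vim* at 5.36 against 9.18 CPM and *Col3a1* at 24.0 against 36.2 CPM. All 8 were above their means in TCDD replicates 2 to 4, which were 3.99 CPM for *Vim* and 7.40 CPM for *Col3a1*. In TCDD replicates 2 to 4, mesenchymal marker sums lay below all vehicle pools. There *Lgr5* was at 67.7% to 72.6%, *Axin2* at 59.2% to 65.7% and *Lef1* at 20.8% to 52.2% of the vehicle mean. *Nkd2* went the other way. It was at 70.0% of the vehicle mean in TCDD replicate 1 and at 294% to 874% in TCDD replicates 2 to 4. *Nkd2* was thus high in those pools that were low in mesenchymal markers. Summed leukocyte markers took the same order as *Nkd2* among the TCDD pools. They were at 29.2, 25.6 and 19.0 CPM in TCDD replicates 2 to 4, 14.6 CPM in TCDD replicate 1 and 10.3 to 20.6 CPM with vehicle. Among the vehicle pools the order did not hold. Vehicle replicates 2 and 4 had leukocyte sums of 19.0 and 20.6 CPM with *Nkd2* at 0.612 and 0.725 CPM. Vehicle replicate 3, the highest of them in *Nkd2* (1.07 CPM), had a leukocyte sum of 14.0 CPM. Summed smooth muscle markers were at 1.13 to 1.86 CPM in TCDD replicates 2 to 4, 6.02 CPM in TCDD replicate 1 and 2.91 to 6.01 CPM with vehicle. Summed neuronal and glial markers were at 8.52 to 8.64, 13.2 and 10.8 to 12.2 CPM in the same order. The summed endothelial markers given above were highest in TCDD replicate 1, while TCDD replicates 2 to 4 overlapped with vehicle. TCDD replicate 1 is 1 pool, and the part of these cell types in the results for *Lgr5*, *Axin2*, *Lef1* and *Nkd2* was not tested.

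**Figure D3:**
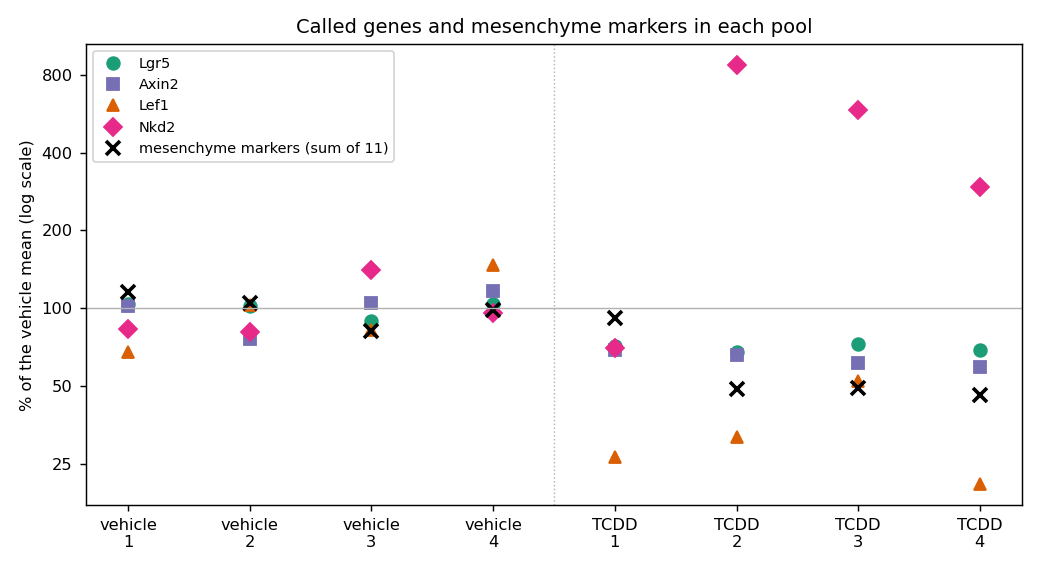
Level of the 4 called genes and of the summed mesenchymal markers in each pool as a percentage of the vehicle mean (y axis, log scale), with the vehicle pools left of the dotted line. In TCDD replicate 1 the marker sum (cross), most of it *Dcn*, is near the vehicle pools, *Lgr5* (71.7%), *Axin2* (69.0%) and *Lef1* (26.5%) are below 100%, and *Nkd2* is at 70.0%.

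Per length, the 10 genes fell into a high and a low tier, and the order of the high tier was the same with vehicle and with TCDD. With vehicle the order was *Lgr4* (28.0 ± 2.00 CPM per kb), *Znrf3* (10.8 ± 0.773), *Axin2* (10.7 ± 1.83) and *Lgr5* (4.78 ± 0.337), followed at under 1 CPM per kb by *Lgr6*, *Nkd1*, *Lef1*, *Nkd2*, *Rspo3* and *Rspo1*. *Znrf3* and *Axin2* overlapped between pools with vehicle. With TCDD they did not, since *Znrf3* was at 7.39 to 10.2 CPM per kb and *Axin2* at 6.32 to 7.37 CPM per kb in the 4 pools. In the low tier, *Lef1* was at 0.476 ± 0.163 CPM per kb with vehicle and 0.156 ± 0.0648 with TCDD (SD, n = 4 pools each), and *Nkd2* at 0.157 ± 0.0442 and 0.718 ± 0.549. With vehicle, the pools of *Lgr6* overlapped with those of *Nkd1*, and those of *Nkd1* with those of *Lef1*, while those of *Nkd2* lay below. With TCDD each of *Lgr6*, *Nkd2*, *Nkd1* and *Lef1* overlapped with the next, so the order of these is not set beyond the spread between pools.

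**Figure D4:**
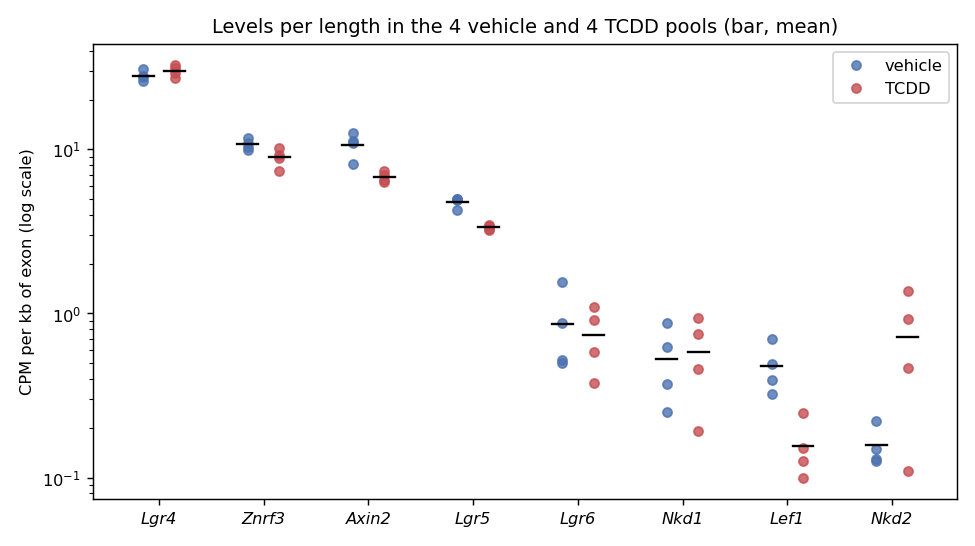
CPM per kb of exon (y axis, log scale) of the 8 genes above the limit of detection in the 4 vehicle (blue) and 4 TCDD (red) pools, in the order of their vehicle means (bars). *Lgr4*, *Znrf3*, *Axin2* and *Lgr5* lie at 3.23 to 32.8 CPM per kb in all pools and the other genes at 0.0991 to 1.55 CPM per kb.

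Among the other genes of the WNT pathway that were listed here, those that passed edgeR's test over 7 pools were all lower. The lists hold R-spondins, feedback genes, receptors, signaling genes and nuclear factors. WNT ligand genes are not on them, nor are secreted inhibitors other than *Notum*. Of 46 further genes listed by role, 42 could be tested over 7 pools, and 15 fell, 27 did not pass the test and none rose (35.7% lower, against 11.2% of all tested genes). At an unadjusted p under 0.05, 1 of them, *Csnk1a1*, was higher in edgeR, and DESeq2 called the same gene higher. The median log2 fold change of the 42 genes was −0.19. Over 8 pools 9 fell (21.4%, against 6.00% of all tested genes), 8 of them among the 15. None rose there by edgeR or DESeq2, with 1 and 2 genes higher at an unadjusted p under 0.05. The lists were chosen with earlier results of these data known. These shares therefore describe the listed genes and test nothing about the pathway.

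Of the feedback genes outside the chosen ones, *Tnfrsf19*, *Tcf7*, *Rnf43* and *Apcdd1* fell. *Tnfrsf19*, which encodes the TNF receptor family member TROY, fell from a mean of 187 CPM to one of 131 CPM, by −0.51 on the log2 scale (SE 0.0714, edgeR adjusted p = 1.43e-04). *Tcf7*, which encodes a partner of β-catenin related to LEF1, had a log2 fold change of −0.70 (adjusted p = 0.00136), and *Apcdd1*, a membrane inhibitor of WNT, of −0.43 (adjusted p = 0.00255). All 3 also fell over 8 pools (edgeR adjusted p = 5.63e-04, 0.00342 and 0.00755). *Rnf43*, the partner of *Znrf3*, had a log2 fold change of −0.48 (adjusted p = 0.00166), but was at 120 CPM in TCDD replicate 1, near its vehicle mean of 127 CPM, and lost the call over 8 pools (adjusted p = 0.0508). *Notum*, a secreted enzyme that inactivates WNT, is named after its values were seen: it had a log2 fold change of −1.38 that passed only over 8 pools (adjusted p = 0.0923 over 7 pools and 0.0496 over 8).

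Of 14 tested WNT receptors 5 fell over 7 pools, none rose and 9 did not pass the test, where 11.2% of all tested genes were called lower. Over 8 pools 3 of 14 were called lower, against 6.00% of all tested genes. The largest of these falls was that of *Ror1* and the next that of its paralog *Ror2*, which encode receptor tyrosine kinases for WNT5A. *Ror1* fell from a mean of 8.54 CPM to one of 3.3 CPM, by −1.37 on the log2 scale (SE 0.177, edgeR adjusted p = 7.99e-05) and *Ror2* from 67.3 CPM to 39.9 CPM, by −0.76 (adjusted p = 0.00229), both also over 8 pools (adjusted p = 4.13e-04 and 0.0129). *Fzd7* (log2 fold change −0.36, adjusted p = 0.00145) and *Fzd2* (log2 fold change −0.63, adjusted p = 0.00167) encode Frizzled receptors. *Fzd7* was also called lower over 8 pools (adjusted p = 0.0472). In TCDD replicate 1, however, it was at 97.2 CPM, near its vehicle mean of 100 CPM and above its mean of 77.8 CPM in TCDD replicates 2 to 4. *Fzd2* was at 68.1 CPM in TCDD replicate 1 against a vehicle mean of 59.5 CPM and lost the call over 8 pools (adjusted p = 0.292). The co-receptor genes *Lrp5* and *Lrp6* had log2 fold changes of −0.10 and −0.14 and were not called (adjusted p = 0.577 and 0.367, and 0.796 and 0.362 over 8 pools).

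Inside the cell, 2 of 12 signaling genes and 4 of 10 nuclear factors fell over 7 pools, where 11.2% of all tested genes were called lower. Over 8 pools 0 of 12 and 2 of 10 were called lower, against 6.00% of all tested genes. *Dvl2* (log2 fold change −0.37, edgeR adjusted p = 0.00461) and *Csnk1e* (log2 fold change −0.31, adjusted p = 0.00408), which encode a Dishevelled and a casein kinase that acts on it, both lost the call over 8 pools (adjusted p = 0.131 and 0.0711). Both were near their vehicle means in TCDD replicate 1 (61.7 against 60.0 CPM and 158 against 161 CPM). *Ctnnb1*, which encodes β-catenin itself, was at 2164 CPM with vehicle and 1909 CPM with TCDD, a log2 fold change of −0.18 that was not called (adjusted p = 0.0606, and 0.0734 over 8 pools). *Pygo1*, a nuclear co-factor of β-catenin (log2 fold change −0.71, adjusted p = 5.97e-05), and *Tcf7l1*, a TCF factor (log2 fold change −0.48, adjusted p = 0.00768), lost the call over 8 pools (adjusted p = 0.0635 and 0.192). In TCDD replicate 1 these 2 genes were also near their vehicle means (39.2 against 39.0 CPM and 35.4 against 33.8 CPM). The co-repressor genes *Tle1* and *Tle4* fell slightly in both sets (log2 fold changes −0.31 and −0.23 over 7 pools, adjusted p = 0.0117 and 0.0411, and 0.0143 and 0.0438 over 8 pools).

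**Figure D5:**
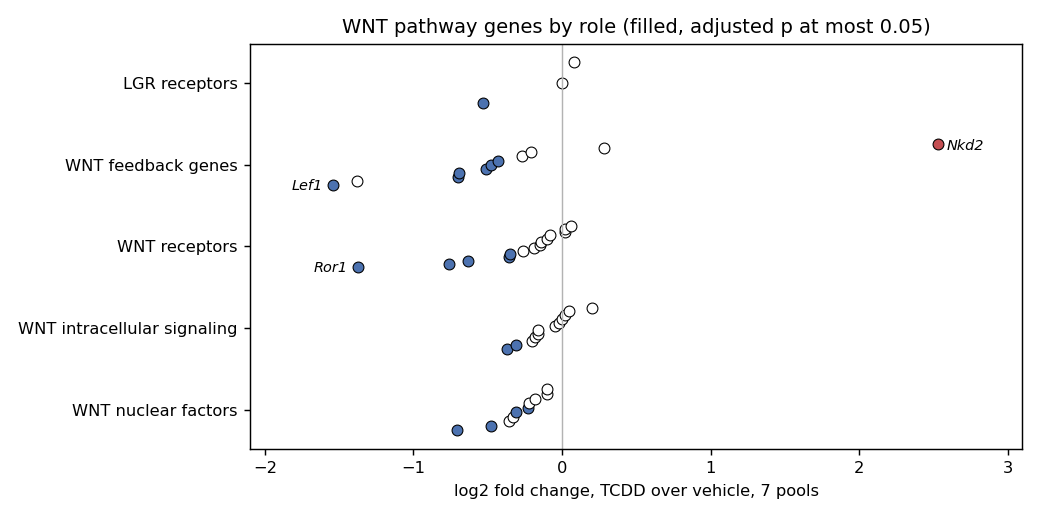
Log2 fold change of TCDD over vehicle over 7 pools (x axis) for the tested genes of 5 lists by role (y axis), the chosen genes included; filled circles passed edgeR's test (blue lower, red higher). Filled circles are lower for all genes other than *Nkd2* (2.53), and *Lef1* (−1.54) and *Ror1* (−1.37) are the farthest left among them.

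The genes whose profile over the 8 pools was most like that of a called gene were found among 11083 genes with a mean of at least 5 CPM, by the root mean square (RMS) difference of log2(CPM + 1) values centered on each gene's mean. For *Lgr5* these were *Katnal1* (RMS difference 0.0518), *BC064078* (0.0640) and *Tnfrsf19* (0.0662). *Axin2* was closest to *Ror2* (0.0927), *Nrip2* (0.103) and *Asrgl1* (0.105), and *Lef1* to *Slc16a10* (0.196), *Nfatc1* (0.196) and *Fgfr1* (0.211). The profile of *Nkd2*, low in TCDD replicate 1 and high in the other TCDD pools, was less closely matched, by *Slc52a3* (0.375), *S100a6* (0.379) and *S100a1* (0.390). These differences include the one between vehicle and TCDD and are a description of the pools.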

How the data were processed

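RNA-seq of UGS epithelium came from 4 vehicle and 4 TCDD pools, each sequenced on 2 lanes. According to the methods of the study, the authors trimmed reads, used HISAT2 2.1.0 for alignment to GRCm38.p6 and counted read pairs per gene with HTSeq 0.12.4 over exons in reverse-stranded mode. Counting by strand keeps reads of antisense genes apart, and by default HTSeq drops pairs that map to several places. The deposited counts are not normalized. Lines that name no gene (17.4% to 20.1% of pairs) were left out. The authors' deposited comparison tables hold their own fold changes and p-values and were not used.

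Lanes of a pool differed by about sampling noise (chi-square per gene 0.990 to 1.04, against 10.1 to 54.1 between pools of a group) so their mean was used and a pool counts as 1 sample, which follows the study. Genes were filtered with filterByExpr (minimum count 10, minimum total 15) and scaled by TMM. Vehicle and TCDD were compared over all tested genes in edgeR 4.0.16 (R 4.3.3) using the robust quasi-likelihood F-test and TREAT against a 1.5-fold change, with Benjamini-Hochberg adjustment and a threshold of 0.05. TCDD replicate 1 was left out of the main comparison, as in the study. CPM values use TMM factors of all 8 pools. Exon lengths and gene coordinates (1-based) come from GENCODE M21, on the authors' assembly but of another release. None of the 10 genes shares exon sequence with another gene on its strand. Alternatives were other scalings, no filter, DESeq2 1.42.0, the newer edgeR method, summed lanes, a replicate block and leaving out each pool.

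The genes named are the 10 chosen ones, up to 4 called genes of each WNT list with the smallest adjusted p, the other R-spondins, *Rnf43*, *Ctnnb1*, *Lrp5* and *Lrp6*, and the 3 genes with the most similar profile. The genes and lists were chosen with earlier results of these data known.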

Additional observations from a re-analysis of the deposited data

Results flagged for a closer look

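*Lgr5* in vehicle replicate 3 was at 43.9 CPM, apart from the other 3 vehicle pools at 50.2 to 51.3 CPM, with a gap to the nearest pool that makes up 0.862 of the range of the group. Chance alone marks about 1 in 20 such groups, and 16 groups (8 genes, each with vehicle and with TCDD) were looked at. Vehicle replicate 3 was still above every TCDD pool, and leaving out 1 pool at a time kept the adjusted p of *Lgr5* by edgeR between 3.48e-04 and 0.00291 over 7 pools.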

How the results depend on the processing

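*Lgr5*, *Axin2* and *Lef1* were called lower in each of the 25 alternatives run, with log2 fold changes of −0.58 to −0.50, −0.80 to −0.57 and −1.93 to −1.26. *Nkd2* was higher in all of them (1.65 to 2.86) but lost the call in 8, which are edgeR over all 8 pools (0 genes called higher in place of 1) and each of these 8-pool fits without 1 further pool (adjusted p = 0.0724 to 0.131). *Lgr4* (0.00 to 0.15) and *Lgr6* (−0.47 to 0.43) were not called in any. *Nkd1*, also never called, turned from −0.21 to 0.12 over 8 pools with edgeR or DESeq2, to 0.11 and 0.10 with the replicate block over 7 and 8 pools, and ran from −0.73 to 0.46 when 1 pool was left out. *Znrf3* was called lower with upper-quartile scaling, unscaled libraries, no filter, and without TCDD replicate 2 over 7 or 8 pools (lowest adjusted p = 0.0189). The number of the 10 genes past 1.5-fold was 1 and became 2, with *Lef1* added, under upper-quartile scaling, unscaled libraries, no filter and the replicate block over 7 pools, and 0 over 8 pools, with DESeq2 over 8 pools and with the block over 8 pools.

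Over all genes, 1688 were higher and 1588 lower over 7 pools, 1041 and 843 over 8 pools, 1109 and 979 over 8 pools with the replicate block, and 1260 and 1036 with DESeq2 over 8 pools. With 1 pool left out, the genes higher ran from 680 to 1633, the genes lower from 534 to 1639, the chosen genes higher from 0 to 1, those lower from 3 to 4 and those past 1.5-fold from 0 to 2. Replicate numbers were not used as pairs in the main tests. Deviations of same-numbered pools from their group means correlated at 0.38, −0.07, −0.16 and 0.14. Those of differently numbered pools correlated at −0.39 to 0.28. So few correlations cannot show whether the pools were paired. With the block, *Nkd2* was called over 8 pools too (log2 fold change 2.01, adjusted p = 0.0158). DESeq2 over 8 pools was chosen after seeing the data. The causes of these changes were not tested. Depth limits *Rspo1* and *Rspo3*, and counts of 12 to 169 per pool limit *Nkd2*, *Nkd1* and *Lef1*.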
